A study of Mus musculus with 6 samples.

Results

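The class I myosins examined here are 5 genes, Myo1c, Myo1d, Myo1e, Myo1f and Myo1g, out of 55536 annotated mouse genes. RNA was sequenced from RAW264.7 cells, a mouse macrophage line transformed by Abelson leukaemia virus, in 2 groups of 3 libraries. The control group received phosphate-buffered saline (PBS), and the treated group received titanium (Ti) particles. The labels give C57BL/6 as the background strain of both groups, whereas the line is generally catalogued as derived from a BALB/c mouse. The labels used here state neither a particle dose nor a duration. The family was chosen by the measured difference between Ti and PBS, since Myo1d was 1 of the 4 genes past the threshold in that comparison, so every difference between the groups given for these 5 genes is a description with no test. Members were found by gene symbol, and all 5 passed the filter on low counts.

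Class I myosins are single-headed motor proteins. Each has a motor domain that binds actin and splits ATP, a neck that carries calmodulin as light chain, and a basic tail that binds membrane phospholipids. They link actin filaments to membranes and so bear on membrane tension, endocytosis, phagocytosis and cell spreading. Myo1c, Myo1d and Myo1g have short tails, whereas Myo1e and Myo1f carry a long tail that ends in an SH3 domain. Myo1f and Myo1g are known mainly from blood cells, and Myo1e and Myo1f take part in uptake at the phagocytic cup of macrophages.

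By group means most of the signal of each gene came from 1 coding transcript, though in Ti replicate 2 Myo1g-201 held only 27.5% of its gene. The sequences below show where some other forms of Myo1d and Myo1g, not always the most abundant ones, part from the leading form. They are read from the GENCODE vM21 transcripts on GRCm38, 5′ to 3′. In Myo1d (chromosome 11, minus strand) the form Myo1d-203 reads on into an intron after base 80674614, where Myo1d-201, the full-length coding form, is spliced to the next coding exon. Lower case is shared and capitals mark the bases after the split.
Myo1d-201: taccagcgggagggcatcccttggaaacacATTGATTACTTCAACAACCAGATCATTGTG
Myo1d-203: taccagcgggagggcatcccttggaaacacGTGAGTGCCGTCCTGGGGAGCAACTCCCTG
The third Myo1d form, Myo1d-202, leaves the full-length form after base 80586847 and ends 164 bases later. Its coding sequence is 944 codons long, against 1006 in Myo1d-201, so its tail differs. Lower case and capitals are used in the same way.
Myo1d-201: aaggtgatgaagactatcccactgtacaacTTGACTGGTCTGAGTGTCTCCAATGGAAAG
Myo1d-202: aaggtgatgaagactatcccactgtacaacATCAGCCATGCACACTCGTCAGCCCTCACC
In Myo1g (chromosome 11, minus strand) the form Myo1g-205 skips 209 bases after base 6520742, which leaves an open reading frame of 65 codons instead of 1024, and its annotated class is nonsense-mediated decay.
Myo1g-201: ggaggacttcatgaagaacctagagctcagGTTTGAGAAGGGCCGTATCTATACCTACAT
Myo1g-205: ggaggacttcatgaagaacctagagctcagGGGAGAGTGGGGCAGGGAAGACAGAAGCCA

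Myo1d, a short-tailed myosin known from endosome traffic and from setting left-right asymmetry, was the member with the widest gap between the groups. Levels are given as CPM, the usual unit for counts scaled to library size, made here from rescaled estimated counts. Myo1d (ENSMUSG00000035441, GRCm38 chromosome 11, 80482126 to 80780025, minus strand) stood at 153, 150 and 138 CPM in PBS replicates 1, 2 and 3 and at 434, 377 and 460 CPM in Ti replicates 1, 2 and 3. Every Ti library was above every PBS library, and the mean was 147 ± 7.88 CPM in PBS and 423 ± 42.5 CPM with Ti (SD, n = 3). The ratio of the means was 2.88, and the log2 fold change was 1.53 ± 0.11 (SE, n = 3 per group). Of the 15376 genes tested, 2.2% had a log2 fold change at least as large in either direction, and Myo1d ranked 197 from the top. Within each replicate number the Ti library held 2.84, 2.51 and 3.33 times the level of the PBS library.

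**Figure D1:**
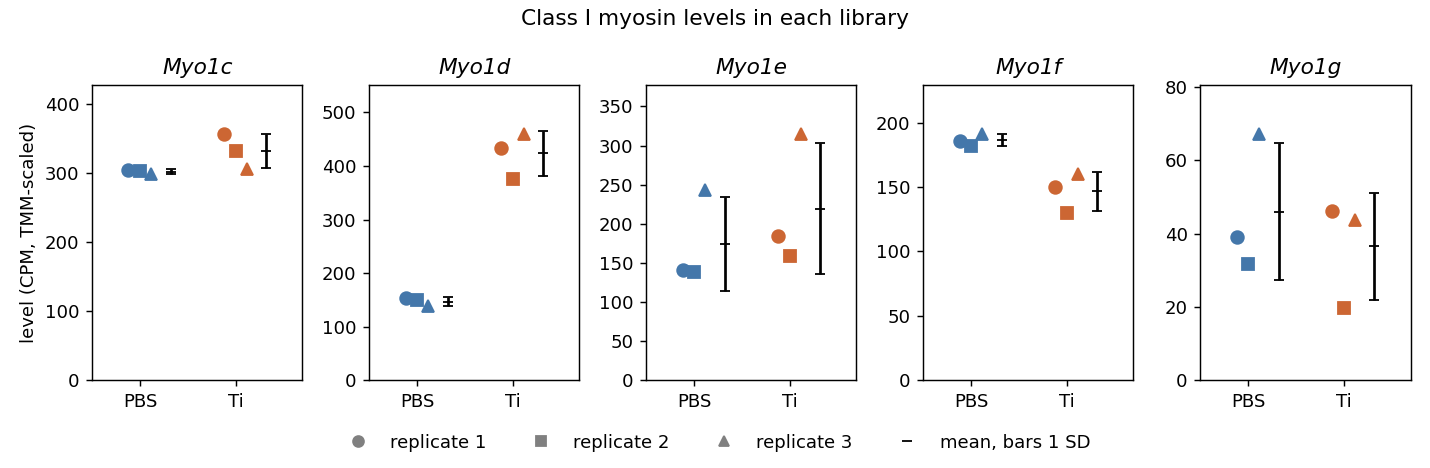
Level of each class I myosin (CPM, linear axis from 0, 1 panel per gene) in the 3 PBS and 3 Ti libraries, with the symbol giving the replicate number and the bar the mean and 1 SD. Myo1d runs from 138 to 153 CPM in PBS and from 377 to 460 CPM with Ti, whereas Myo1e is high in replicate 3 of both groups.

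Both abundant forms of Myo1d were higher in the Ti libraries, and most of the gap in CPM lay in Myo1d-201. The full-length coding form Myo1d-201 stood at 143, 140 and 122 CPM in the PBS libraries and at 386, 331 and 412 CPM in the Ti libraries. Its log2 fold change in the fit over transcripts was 1.46 ± 0.14 (SE, n = 3 per group). The intron-retaining form Myo1d-203, which has 10 exons and codes for no annotated protein, stood at 9.96, 7.18 and 14.4 CPM against 47.0, 41.1 and 43.0 CPM in the Ti libraries (log2 fold change 2.05 ± 0.27). In both forms the 2 groups did not overlap. Of the 2454 bases of Myo1d-203, 947 are absent from Myo1d-201. The levels of the 2 forms therefore rest on how the authors' tool apportioned the bases they share. Myo1d-203 made up 6.51%, 4.79% and 10.4% of the gene in the PBS libraries and 10.8%, 10.9% and 9.37% in the Ti libraries, so its share overlapped between the groups. The short-tailed variant form Myo1d-202 was scarce and uneven, at 0.299, 2.55 and 2.12 CPM in PBS and 1.06, 4.76 and 4.41 CPM with Ti. In both groups its lowest value was in replicate 1.

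**Figure D2:**
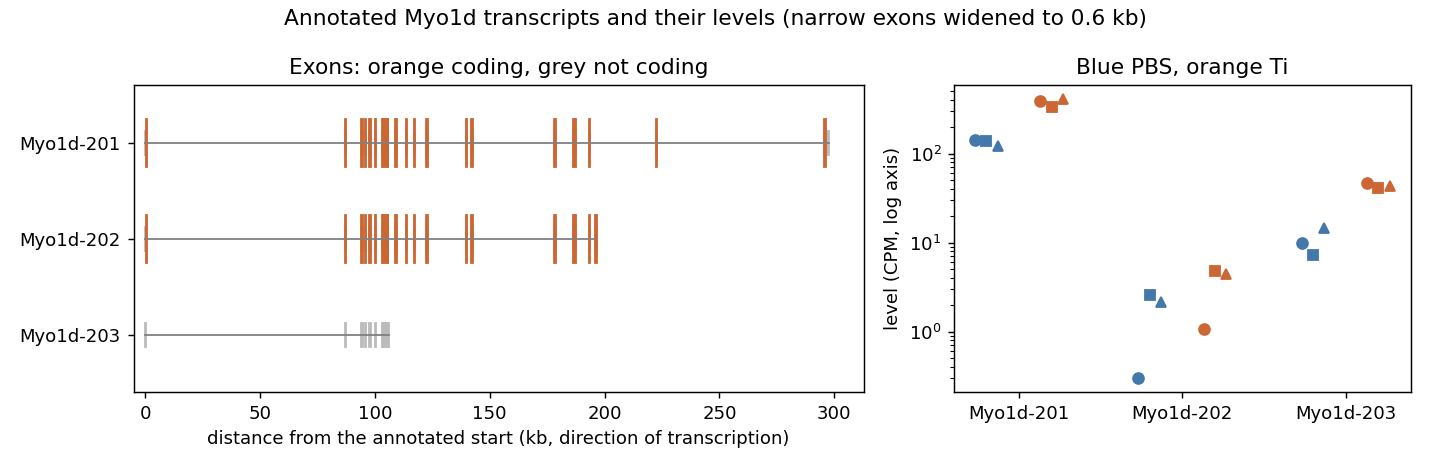
Left, the exons of the 3 annotated Myo1d transcripts by distance from the annotated start (kb, in the direction of transcription), coding parts in orange and the narrowest exons widened to be visible. Right, the level of each transcript (CPM, log axis) in the PBS (blue) and Ti (orange) libraries, with symbols for replicate numbers as in the plot of gene levels; Myo1d-201 and Myo1d-203 are higher in all 3 Ti libraries, and Myo1d-202 overlaps.

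Genes around Myo1d were then compared in the fit over all genes. C030013C21Rik, a non-coding gene annotated inside an intron of Myo1d on the same strand, stood at 1.05, 0.973 and 2.06 CPM in PBS and at 4.57, 2.97 and 4.22 CPM with Ti. Its log2 fold change was 1.53 ± 0.38 (edgeR adjusted p = 0.433). Its reads cannot be told apart from unspliced Myo1d reads. Cdk5r1, which encodes an activator of the kinase Cdk5 and lies 0.942 kb past the end of Myo1d, was at 0.922, 7.21 and 5.66 CPM in PBS and at 0.644, 0.295 and 0.499 CPM with Ti (log2 fold change -3.24 ± 0.80, edgeR adjusted p = 0.431). On the side of the Myo1d start, the membrane protein gene Tmem98 had a log2 fold change of -0.57 ± 0.30 (edgeR adjusted p = 0.816). The proteasome subunit gene Psmd11, the next gene past Cdk5r1, had -0.02 ± 0.19 (edgeR adjusted p = 0.998). None of these 4 passed an adjusted p of 0.05. These genes were taken by position, after the values of Myo1d were known.

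Myo1c, a widely expressed short-tailed myosin known from insulin-stimulated glucose transporter traffic, lay a little higher in the Ti libraries. It stood at 304, 302 and 299 CPM in PBS and at 356, 332 and 306 CPM with Ti (ENSMUSG00000017774, chromosome 11, 75650504 to 75673910, plus strand). The groups did not overlap, but the nearest values, 304 and 306 CPM, were almost level. The log2 fold change was 0.13 ± 0.09 (SE, n = 3 per group), and 0.0079 with library sizes taken over all deposited rows. Within replicate numbers the Ti to PBS ratio was 1.17, 1.10 and 1.02.

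Myo1c has several annotated starts, which give proteins that differ only at their N-terminus, and 1 of these forms is the one known as nuclear myosin I. The coding sequences of 4 transcripts begin as follows (chromosome 11, plus strand), with capitals for the codons added before the start that all of them share.
Myo1c-203: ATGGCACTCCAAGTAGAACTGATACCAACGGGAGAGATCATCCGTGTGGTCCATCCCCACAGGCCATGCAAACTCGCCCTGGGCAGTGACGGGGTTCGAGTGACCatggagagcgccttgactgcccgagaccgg
Myo1c-204: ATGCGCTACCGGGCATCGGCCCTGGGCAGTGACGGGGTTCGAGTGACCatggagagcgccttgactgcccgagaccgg
Myo1c-201: atggagagcgccttgactgcccgagaccgg
Myo1c-202: atggagagcgccttgactgcccgagaccgg
Myo1c-203 adds 35 codons (1063 in all) and Myo1c-204, the nuclear myosin I form, adds 16 (1044 in all), while Myo1c-201 and Myo1c-202 both encode 1028. Myo1c-204 held 93.2%, 93.1% and 92.9% of the gene in the PBS libraries and 93.6%, 93.8% and 93.4% in the Ti libraries. Myo1c-201, Myo1c-202 and Myo1c-203 held means of 1.97%, 1.88% and 1.32% in PBS and 2.11%, 1.68% and 0.930% with Ti. The 4 transcripts have 32 exons each and share 30 of them, so these shares rest on how the authors' tool apportioned few distinguishing bases.

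The start of Myo1c-204 (base 75655873) and that of the most upstream form, Myo1c-203 (base 75650504), lie in separate promoter windows in RefSeq (GRCm38.p6, plus strand). The bases of each window before the GENCODE start are printed because the start behind the first carried most of the signal. Capitals mark a GC box (GGGCGG, searched on both strands), which 35.7% of 32851 RefSeq promoter windows of the same length held. Both full windows held a GC box, and that of the Myo1c-204 window lies past the bases printed here. A match is only a description of the letters.
Myo1c-204 window, chr11:75655765-75655872: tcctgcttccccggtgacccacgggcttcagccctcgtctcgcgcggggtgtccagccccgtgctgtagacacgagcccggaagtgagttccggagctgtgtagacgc
Myo1c-203 window, chr11:75650269-75650503: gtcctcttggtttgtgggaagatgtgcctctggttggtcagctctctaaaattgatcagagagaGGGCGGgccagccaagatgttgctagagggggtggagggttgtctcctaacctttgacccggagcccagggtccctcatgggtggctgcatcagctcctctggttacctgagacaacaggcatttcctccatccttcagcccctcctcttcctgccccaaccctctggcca
The full windows had a GC content of 72% at the Myo1c-204 start and 58% at the Myo1c-203 start.

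Myo1e, a long-tailed myosin of the phagocytic cup and of kidney podocytes, was highest in replicate 3 of each treatment. Its level was 141, 139 and 244 CPM in PBS and 184, 159 and 315 CPM with Ti (ENSMUSG00000032220, chromosome 9, 70207350 to 70399766, plus strand). The groups overlapped, and what set replicate 3 apart was not tested. The log2 fold change was 0.33 ± 0.34 (SE, n = 3 per group). Within replicate numbers the Ti to PBS ratio was 1.31, 1.15 and 1.29, above 1 in each. With the replicate number as a block the log2 fold change was 0.32 with an SE of 0.074. That pairing was inferred from these same data, and the blocked fit called 0 genes of the whole table. In the fit without the block, the log2 fold change of Myo1e was 0.655 without PBS replicate 3, 0.52 without Ti replicate 2 and -0.018 without Ti replicate 3. The coding form Myo1e-201 held 97.9% to 98.9% of the gene in every library.

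Myo1f, the other long-tailed member, was lower with Ti. It stood at 186, 182 and 191 CPM in PBS and at 150, 130 and 160 CPM with Ti (ENSMUSG00000024300, chromosome 17, 33555707 to 33607764, plus strand). All 3 Ti libraries were below all 3 PBS libraries, and the log2 fold change was -0.35 ± 0.10 (SE, n = 3 per group). Within replicate numbers the Ti to PBS ratio was 0.807, 0.712 and 0.837. The coding form Myo1f-201 stood at 179, 175 and 181 CPM in PBS and at 143, 104 and 151 CPM with Ti and had a log2 fold change of -0.45 ± 0.16 in the fit over transcripts. Ti replicate 2 differed in its mix of forms. There the intron-retaining Myo1f-203 reached 23.3 CPM, or 18.0% of the gene, against 5.61 to 8.22 CPM and 3.13% to 5.14% in the other 5 libraries. Of 6 protein-coding neighbours of Myo1f 5 were tested, and 3 of them were lower in all 3 Ti libraries than in any PBS library, against 6.71% of all genes tested. The other two, Zfp101 and Hnrnpm, overlapped between the groups. Adamts10, a secreted metalloprotease gene 1.925 kb before Myo1f, had a log2 fold change of -0.67 ± 0.21 (edgeR adjusted p = 0.593). On the other side Zfp414, a zinc finger gene, had -0.27 ± 0.14 (edgeR adjusted p = 0.816) and Pram1, an adaptor protein gene of myeloid cells, had -0.82 ± 0.20 (edgeR adjusted p = 0.440). They too were taken by position after the values were known, and none passed the threshold. The protein-coding neighbours of Myo1c and Myo1e, taken in the same way, all overlapped between the groups. Of these, Doc2b near Myo1c and Gcnt3 and Fam81a near Myo1e were too scarce to be tested. Among those of Myo1g, H2afv was lower and Ccm2 higher in every Ti library than in any PBS library. The others overlapped, and Nacad among them was not tested.

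Myo1g, a short-tailed myosin of lymphocytes and macrophages, was the scarcest member and the most uneven. It stood at 39.0, 31.8 and 67.1 CPM in PBS and at 46.2, 19.7 and 43.8 CPM with Ti (ENSMUSG00000020437, chromosome 11, 6506548 to 6520965, minus strand). The groups overlapped, and the log2 fold change was -0.33 ± 0.41 (SE, n = 3 per group). It was 0.051 without PBS replicate 3 and -0.032 without Ti replicate 2, while voom with quality weights gave -0.096. The same Ti library again stood apart in its forms. The coding form Myo1g-201 was at 33.3, 28.7 and 58.3 CPM in PBS and at 41.2, 5.41 and 35.4 CPM with Ti. The exon-skipping form Myo1g-205, printed above, was at 9.45 CPM in Ti replicate 2 and listed at 0 in the other 5 libraries. It made up 48.0% of the gene in that library. Transcripts seen in a single library occurred elsewhere too. Ti replicate 2 had 41 annotated transcripts with at least 100 rescaled counts and under 1 in every other library, and the other 5 libraries had 36 to 96 each. The part of this library's mix of forms in the values of Myo1f and Myo1g was not tested. Myo1g-207, an intron-retaining form, had means of 5.74 CPM in PBS and 5.92 CPM with Ti.

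**Figure D3:**
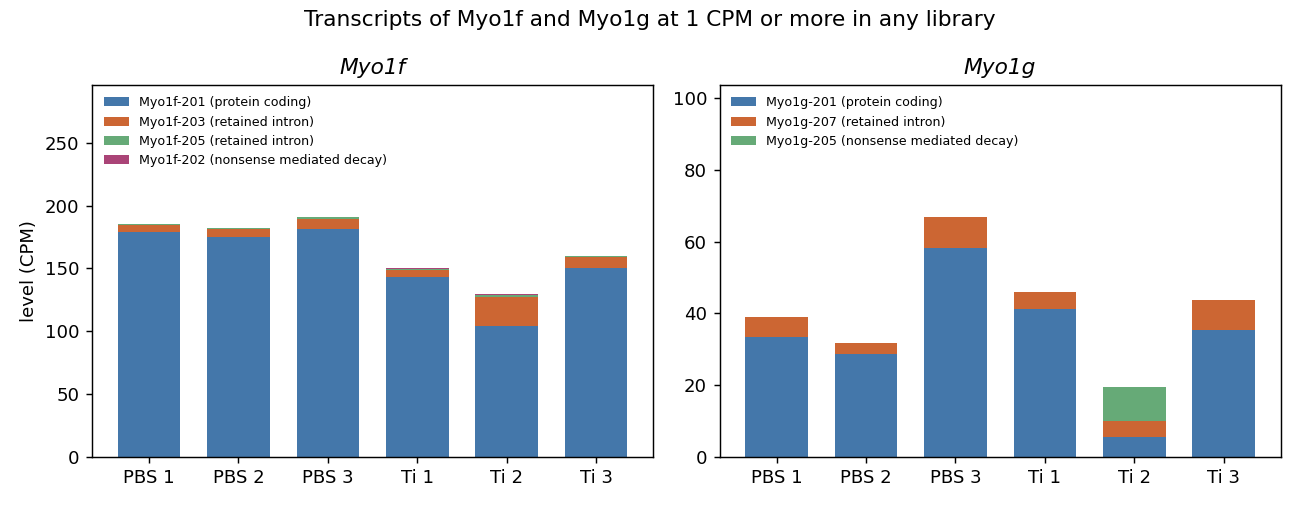
Levels (CPM, stacked bars from 0) of the annotated transcripts of Myo1f and Myo1g that reach 1 CPM in any library, for the 3 PBS and 3 Ti libraries. In Ti replicate 2 Myo1f-203 reaches 23.3 CPM and Myo1g-205 reaches 9.45 CPM, and Myo1g-201 is at 5.41 CPM in that library.

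By the rule of an edgeR quasi-likelihood adjusted p under 0.05, 1 of the 5 members was called, Myo1d, against 0.026% of the 15376 genes tested (0.013% higher and 0.013% lower with Ti). Myo1d is the gene for which the family was chosen, so nothing is read from that count. When replicate number entered the fit as a block, 0 genes of the whole table were called (lowest edgeR adjusted p 0.0718), and the log2 fold change of Myo1d was 1.52. Without any 1 of the PBS libraries or Ti replicate 1, 0 of the 5 members were called, and 1 of the 5 was called without Ti replicate 2 or without Ti replicate 3. Those fits called only 1 to 13 genes of the whole table, out of 15722 to 15926 tested. The groups did not overlap for 3 of the 5 members (Myo1c and Myo1d higher, Myo1f lower), which held for 13.3% of all genes tested (6.63% higher and 6.71% lower). That count includes Myo1d, so nothing is read from it either. The call of Myo1d was also lost with library sizes over all deposited rows (edgeR adjusted p = 0.102) and with protein-coding transcripts only (edgeR adjusted p = 0.0591). It was kept without a filter (edgeR adjusted p = 0.0386) and with a mean of at least 50 counts (edgeR adjusted p = 0.0267). The same held for DESeq2 size factors (edgeR adjusted p = 0.0353) and unrescaled values (edgeR adjusted p = 0.0436). Voom (adjusted p = 0.0115) and DESeq2 (adjusted p = 2.41e-24) also called Myo1d, against 10 and 292 of the 15376 genes tested. Of the 29 annotated transcripts of the family, 22 passed the filter on low counts. Of these, edgeR called 0, against 0.00721% of the 41599 transcripts tested (0.00481% higher and 0.0024% lower). At an unadjusted p under 0.05 there were 3 of 22, against 4.29% of all transcripts tested, and voom called 0. DESeq2 called 2, Myo1d-201 and Myo1d-203, against 0.971% of all transcripts tested (0.524% higher and 0.447% lower). Both are forms of the gene for which the family was chosen, so nothing is read from them. The groups did not overlap for 5 of the 22, 4 higher and 1 lower, against 10.5% of all transcripts tested (5.84% higher and 4.63% lower). The 22 include the forms of Myo1d, and Myo1d-201 and Myo1d-203 are among those that did not overlap. Nothing is therefore read from the counts over the 22 transcripts.

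Myo1d held a larger part of the family total with Ti. Because longer transcripts collect more reads, levels were compared between genes as CPM per kb of exon, with each transcript divided by its exon length. Levels between genes also rest on the rescaling of the deposited values by exon length over genomic span, and their order changed without it. In PBS the order was Myo1c at 70.1 ± 1.58, Myo1f at 50.4 ± 1.72, Myo1e at 38.8 ± 13.1, Myo1d and Myo1g at 13.5 ± 5.50 CPM per kb (mean ± SD, n = 3). Myo1d stood at 30.8, 29.9 and 29.3 CPM per kb there. Myo1f and Myo1e overlapped, with Myo1e running from 30.8 to 53.9, and the lowest Myo1e library was almost level with the highest Myo1d library, at 30.8 for both. With Ti the order was Myo1d at 89.2 ± 8.20, Myo1c at 76.1 ± 3.93, Myo1e at 49.5 ± 18.9, Myo1f at 39.9 ± 3.57 and Myo1g at 10.8 ± 4.07 CPM per kb. Myo1d and Myo1c overlapped there across libraries, at 91.6, 80.1 and 95.9 for Myo1d and 80.4, 75.5 and 72.6 for Myo1c, although Myo1d was the higher in each library. Myo1e overlapped Myo1f with Ti. Myo1d made up 15.7%, 16.0% and 13.0% of the family sum per kb in PBS and 34.2%, 34.3% and 32.5% with Ti. The sum of the 5 members was 196, 187 and 225 CPM per kb in PBS and 268, 234 and 296 with Ti, and the groups did not overlap. That sum includes Myo1d, for which the family was chosen, so nothing is read from its separation. The sum of the other members was not compared. On the deposited values per kb of exon, without that rescaling, Myo1d held 41.3%, 41.9% and 31.9% of the family in PBS and 64.1%, 64.8% and 56.2% with Ti. There Myo1e held a mean of 38.4% in PBS and Myo1c only 6.48%, so Myo1d and Myo1e were the highest members in both groups, followed by Myo1f, Myo1c and Myo1g. Under both scalings the share of Myo1d was higher in every Ti library than in any PBS library. The rescaling multiplies a transcript by the same factor in every library, so the likeness of the scalings is no separate check. The share also rests on the Myo1d values for which the family was chosen. The alternative without rescaling was chosen after the data were seen. In these bulk libraries a change in the number of cells that express a gene cannot be told apart from a change in RNA per cell.

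**Figure D4:**
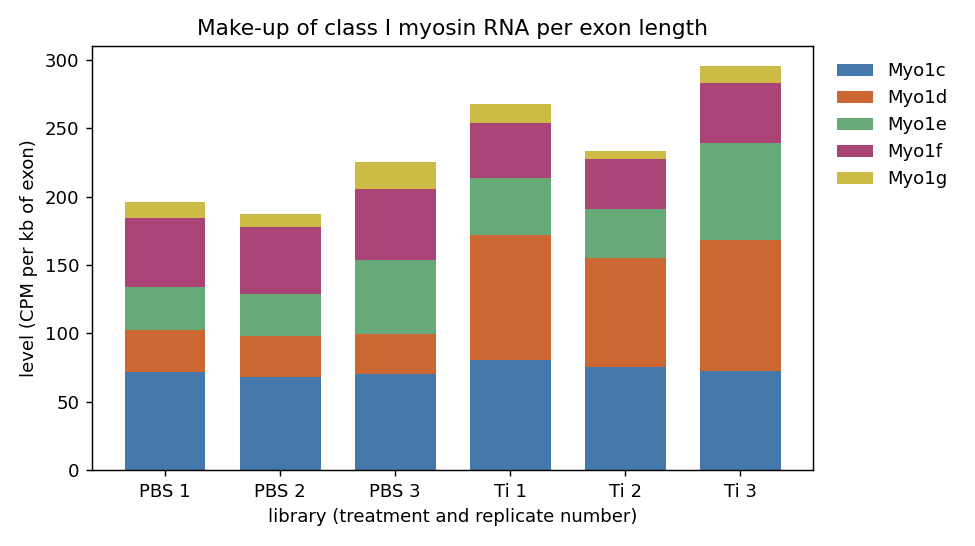
Level per exon length (CPM per kb, stacked bars from 0) of the 5 class I myosins in each of the 3 PBS and 3 Ti libraries. The Myo1d part runs from 29.3 to 30.8 CPM per kb in PBS and from 80.1 to 95.9 with Ti, and the Myo1f part is smaller in each Ti library than in any PBS library. The heights of different genes rest on the rescaling by exon length over genomic span.

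The members are related but distinct at the level of sequence. The leading coding sequences of Myo1e and Myo1f were the most alike, with 69.9% identity over aligned bases, followed by Myo1d and Myo1g with 63.1%. The other 8 pairs lay between 54.9% and 57.7%. Of the 10 pairs of leading transcripts, 9 shared no run of 31 bases. Myo1e-201 and Myo1f-201 shared a longest identical run of 32 bases. Among the closest relatives, Myo1d and Myo1g had log2 fold changes of 1.53 ± 0.11 and -0.33 ± 0.41 (SE, n = 3 per group). Those of Myo1e and Myo1f were 0.33 ± 0.34 and -0.35 ± 0.10. The values of Myo1e and Myo1g were smaller than their SE, and each changed sign with a library left out. Differences between relatives were not tested.

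Other class I genes were scarce. Myo1h had at most 1 rescaled count in any library, where 3 rescaled counts would be 0.0469 to 0.0804 CPM. Myo1a, the intestinal brush border myosin, stood at 0.109 to 0.407 CPM in PBS and 0.193 to 0.458 CPM with Ti (log2 fold change 0.53 ± 0.62, edgeR adjusted p = 0.950).

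Other motors, light chains and partners were read from the same fit in 8 lists of 68 gene identifiers, of which 53 were tested. By edgeR 0 passed an adjusted p of 0.05 in either direction, against 0.026% of all genes tested, and 5 of 53 had an unadjusted p under 0.05, against 6.76% of all genes tested. Voom also called 0. DESeq2 called 2 of 53, both lower with Ti: Myo6 (adjusted p = 0.0349) and Wipf1 (adjusted p = 0.0142). By DESeq2 1.9% of all genes tested were called (1.06% higher and 0.839% lower). The median log2 fold change of the 53 was -0.02, with 26 above and 27 below 0, beside a median of 0.01 over all genes tested.

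Among 16 other unconventional myosins 9 were tested, with a median log2 fold change of -0.05. Myo6, the motor that walks towards the minus end of actin filaments, was at 3.69, 0.549 and 0.815 CPM in PBS and at 0.236, 0.241 and 0.208 CPM with Ti. Its PBS replicate 1 was far above the other libraries, the groups did not overlap, and the log2 fold change was -2.88 ± 0.81 (edgeR adjusted p = 0.506). Myo10, a motor of filopodia, had -0.72 ± 0.51 (edgeR adjusted p = 0.881) and Myo9a, a motor with a GTPase-activating domain, 0.28 ± 0.20 (edgeR adjusted p = 0.884). Of nonmuscle myosin II heavy and light chains 7 of 10 identifiers were tested, with a median of 0.04. The heavy chain gene Myh10 was scarce, at 0.141, 0.0997 and 0.192 CPM in PBS and 0.300, 0.295 and 0.333 CPM with Ti (log2 fold change 1.09 ± 0.37, edgeR adjusted p = 0.635). The regulatory light chain genes Myl12b, for the more abundant of the 2 identifiers under that symbol, and Myl12a had -0.19 ± 0.12 (edgeR adjusted p = 0.865) and 0.13 ± 0.12 (edgeR adjusted p = 0.923).

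Calmodulin, the light chain of the class I myosins themselves, is encoded by several genes. Calm2 had a log2 fold change of 0.09 ± 0.16 and Calm3 of -0.09 ± 0.13. Their edgeR adjusted p-values were 0.969 and 0.967.

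The Arp2/3 complex nucleates the branched actin on which class I myosins act at the membrane. All 15 genes of that list were tested, with a median log2 fold change of -0.05. Wipf1, which encodes the partner protein of the activator WASP, stood at 43.4, 41.4 and 51.0 CPM in PBS and at 8.52, 19.3 and 21.9 CPM with Ti. All Ti libraries were below all PBS libraries, with a log2 fold change of -1.45 ± 0.36 (edgeR adjusted p = 0.431). Actr3, the Arp3 subunit, was at 501, 502 and 506 CPM against 385, 385 and 445 CPM, a log2 fold change of -0.31 ± 0.09 (edgeR adjusted p = 0.536). Hcls1, a cortactin relative of blood cells, had 0.28 ± 0.13 (edgeR adjusted p = 0.761).

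Tropomyosins, which coat actin filaments and keep class I myosins off them, had positive values in 4 of 4 genes tested. Over all genes tested 7829 of 15376 were positive. The median log2 fold change of the tropomyosins was 0.35, and the groups overlapped for all of them but Tpm2. Tpm2 had 1.95 ± 0.90 at under 1 CPM in every library, Tpm3 0.54 ± 0.41 and Tpm4 0.15 ± 0.15, and the lowest edgeR adjusted p of the list was 0.773. The membrane-to-actin linkers Ezr, Msn and Rdx had -0.28 ± 0.16, 0.19 ± 0.12 and -0.02 ± 0.10, with a lowest edgeR adjusted p of 0.823. Among endocytic coat and scission genes 11 of 13 were tested, with a median of -0.09. Ap2a2, a clathrin adaptor subunit, had -0.32 ± 0.13 (edgeR adjusted p = 0.736), Clta, a clathrin light chain, 0.29 ± 0.15 (edgeR adjusted p = 0.816) and Ap2m1, another adaptor subunit, -0.37 ± 0.21 (edgeR adjusted p = 0.827).

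**Figure D5:**
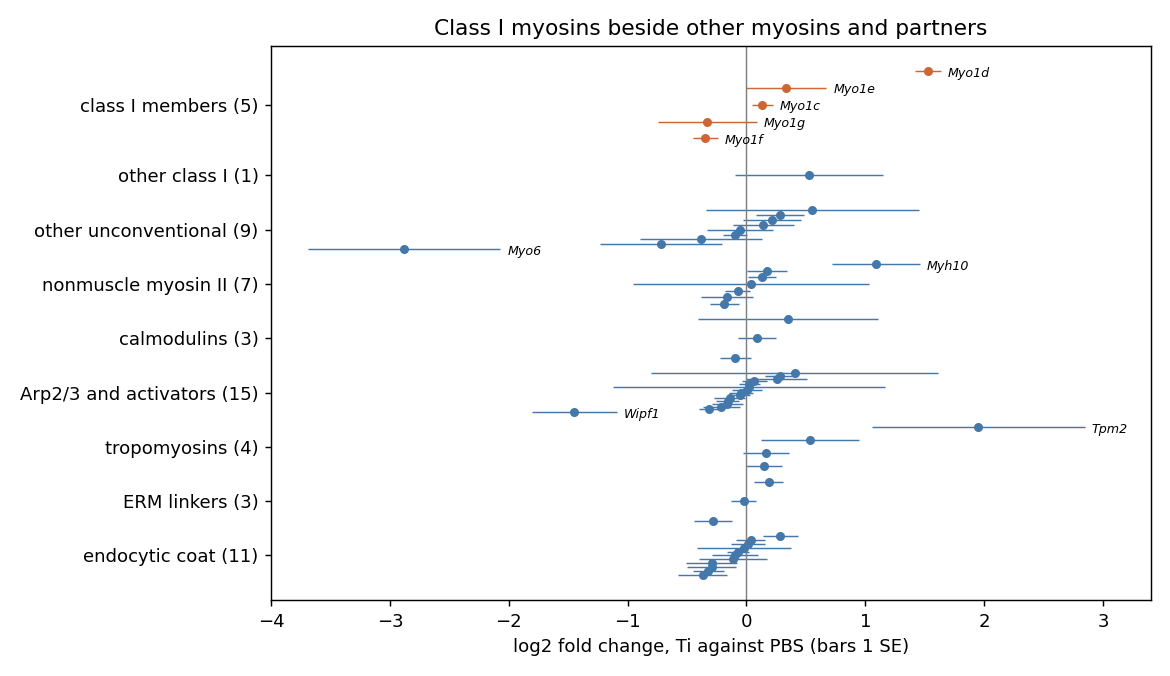
Log2 fold change of Ti against PBS (points, bars 1 SE) for the 5 class I members in orange and for the tested genes of 8 lists of other myosins and partners in blue, with the number of genes in brackets. Myo1d lies at 1.53, and Myo6, Wipf1, Myh10 and Tpm2 are the named points of the other lists farthest from 0.

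The genes whose profile over the 6 libraries was closest to that of Myo1d were sought among 8786 protein-coding genes with a mean of at least 5 CPM. Likeness was the root mean square difference of log2(CPM + 0.5) after each gene was centred on its PBS mean. Among the 5 closest were Zc3h12a, which encodes the mRNA-degrading enzyme Regnase-1 (difference 0.152), Axl, a receptor for apoptotic cells (0.159), Rusc1 (0.204) and Cenpu, a centromere protein gene (0.267). Zc3h12a stood at 6.42, 7.56 and 5.97 CPM in PBS and at 25.2, 19.4 and 21.1 CPM with Ti. Axl stood at 6.42, 5.81 and 5.99 CPM against 21.8, 19.4 and 17.4 CPM. Of the class I myosins the nearest was Myo1e, at 0.933, and the others lay at 0.990 to 1.40. With each gene centred on its PBS mean, these distances largely restate differences between Ti and PBS, for which Myo1d was chosen. Shared regulation was not tested.

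All 8 macrophage markers were present, with a summed level of 4786 to 6249 CPM in PBS and 5832 to 6561 CPM with Ti. Most of that sum was Lyz2, and single markers were uneven between libraries. Csf1r stood at 472, 1462 and 1598 CPM in PBS and at 1387, 144 and 435 CPM with Ti, Itgam ran from 11.9 to 112 CPM over the 6 libraries and Fcgr1 from 11.95 to 65.4 CPM. Their part in the members' values was not tested. Lists of 5 fibroblast, 4 T cell, 4 B cell and 4 epithelial markers summed to at most 0.0938 CPM in any library. Of 5 osteoclast markers Calcr was at 0 throughout, and the list summed to 12.8 to 20.4 CPM in PBS and 19.0 to 20.3 CPM with Ti. Rescaled totals ran from 37686020 to 60242937 per library. The labels do not say that replicates were separate cultures, so standard errors and p-values measure the spread between these libraries, which may be technical.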

How the data were processed

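The members and gene lists were chosen with earlier results of these data known. Each library's table, as deposited by the authors, lists an estimated count for each of 187351 transcripts, as whole numbers. HISAT2, StringTie and genome build mm9 are named, without versions or roles, per the submitters' processing notes. The 141862 rows with Ensembl identifiers match the 141862 transcripts of GENCODE vM21 (GRCm38), whose names and coordinates are used. The other 45489 rows, assembled transcripts with 36.9% to 51.2% of the deposited totals, were left out.

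Small values grew with the genomic span of a transcript. Among 8 bins by span over exon length, their lower quartile (zeros left out) went from 4 to 172. Each value was therefore multiplied by exon length over span, summed per gene and rounded, and the result does not count reads. The fits over genes and over transcripts used edgeR 4.0.16 in R 4.3.3, with its quasi-likelihood test, TMM scaling, filterByExpr and Benjamini-Hochberg adjustment over all features. The standard error is the log2 fold change over the square root of F. DESeq2 1.42.0 and limma 3.58.1 (voom) were alternatives, and the fit was tested on simulated data. Sequences were compared with Biopython 1.88.

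Same-numbered libraries of both groups deviated together across genes (correlations 0.110, 0.144 and 0.266, against -0.170 to 0.0402 for other pairs). Deviations were centred within each group, so positive values for same-numbered pairs push the other pairs down. Ratios within replicate number and a fit with replicate number as a block are therefore also given. The main fits took no pairing, and their standard errors and p-values ignore it. The pairing comes from the data, not the labels.

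Named were the 5 members, their transcripts with at least 10% of the gene in either group, up to 3 genes of each list with the smallest p, and the 5 genes closest to Myo1d. Other transcripts, neighbouring genes and Myo1h were added after their values were seen. Some items that the rule names are not reported here.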

Additional observations from a re-analysis of the deposited data

How the results depend on the processing

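Log2 fold changes of the members kept their sign in 15 of 15 alternatives for Myo1c, Myo1d and Myo1f and in 14 of 15 for Myo1e and Myo1g. With each library left out in turn they ran from 0.079 to 0.19 for Myo1c, 1.467 to 1.603 for Myo1d, -0.018 to 0.655 for Myo1e, -0.41 to -0.27 for Myo1f and -0.54 to 0.051 for Myo1g. With library sizes over all deposited rows and no TMM the median of all genes shifted by -0.12, and values were 0.0079 for Myo1c, 1.41 for Myo1d and -0.47 for Myo1f. Against 4 genes called, there were 292 with DESeq2, 10 with voom, 0 with the replicate block, 2 with those library sizes and 2 with protein-coding transcripts only. With a library left out there were 1 to 13, with 13 without Ti replicate 3 and 11 without Ti replicate 2. There were 5 without PBS replicate 3, 2 without PBS replicate 1, and 1 without PBS replicate 2 or Ti replicate 1. Against 3 transcripts called (lowest edgeR adjusted p 0.0499), there were 404 with DESeq2, 9 with unrescaled values, 0 when unfiltered, when a mean of at least 50 counts was required, with DESeq2 size factors, with voom or with the replicate block, and 0 to 1 with a library left out. Of the genes in the pathway lists 0 were called in 14 of 15 alternatives and 2 with DESeq2. With the replicate block the log2 fold changes were 0.13, 1.52, 0.32, -0.35 and -0.35 for Myo1c, Myo1d, Myo1e, Myo1f and Myo1g. The cause of these differences was not tested. Myo1h lay under the level of 3 rescaled counts (0.0469 to 0.0804 CPM), whereas the 5 members lay far above it. Rescaled counts do not count reads, so the read depth behind these values is not known.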
